A study of Mus musculus with 12 samples.

Results

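Transcripts of 8 genes of the brown fat thermogenic program were followed in the mammary tissue of 12 mice: Ucp1, Cidea, Ppargc1a, Dio2, Cox7a1, Cox8b, Elovl3 and Prdm16. They were chosen by name, and each probe set that the array's annotation assigns to one of them was kept, whatever its signal, which gave 17 probe sets of 45037 other than controls and 8 genes of 18193. Tissue was collected 6 days after a mating plug, in early pregnancy, from 3 mice of each of 4 genotypes on a mixed C57BL/6, FVB and 129 background. Stat5a-/- mice have 0 intact Stat5a and 2 intact Stat5b alleles, and Stat5ab+/null mice have 1 of each. Stat5abnull/Stat5b- mice have 1 intact Stat5a allele and 0 of Stat5b (here single-Stat5a), and Stat5abnull/Stat5a- mice have 1 intact Stat5b allele and 0 of Stat5a (here single-Stat5b). All 4 groups carry mutant alleles, and wild-type mice were not analysed here. The labels also describe PolyIC injection to activate an Mx1-Cre transgene and sorted cells, without saying whether these mice received the injection. The series design gives mammary tissue, and markers of luminal epithelium (mean log2 signal of the list 10.7 to 11.8 per array) and of white adipocytes (11.6 to 13.2) were high on average in every array. The luminal gene Cldn4, singled out after its values were seen, stood at only 4.80 to 6.86 in the single-Stat5a and single-Stat5b arrays. The mean of the B cell list ran from 6.43 to 11.41 per array. The labels do not say how far the mice are independent beyond being separate animals, so each p-value measures the spread between these arrays only.

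Brown adipocytes burn fatty acids to make heat. Ucp1, in the inner mitochondrial membrane, lets protons return without making ATP. Noradrenaline from sympathetic nerves turns the program on through cAMP, while Prdm16 and Ppargc1a are transcriptional regulators that build it. White fat pads such as the mammary fat pad can hold scattered thermogenic adipocytes. Several of these genes also act elsewhere: Cox7a1 and Cox8b are subunit isoforms of cytochrome c oxidase in heart and skeletal muscle too, Cidea coats fat droplets in brown adipocytes and is also expressed in milk-secreting epithelium, and Elovl3 is also a gene of sebaceous glands.

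Reference promoters (250 bases before to 50 after the gene start, GRCm38.p6, from RefSeq) were matched for 6 of the 8 genes, all but Cidea and Elovl3. Those of Ucp1, Cox8b and Prdm16 are shown first. Capitals mark AGGTCA, the half-site of nuclear receptors, and TGACG, the half-site of the cAMP response element, searched on both strands.
Ucp1 (chr8:83290098-83290397, + strand): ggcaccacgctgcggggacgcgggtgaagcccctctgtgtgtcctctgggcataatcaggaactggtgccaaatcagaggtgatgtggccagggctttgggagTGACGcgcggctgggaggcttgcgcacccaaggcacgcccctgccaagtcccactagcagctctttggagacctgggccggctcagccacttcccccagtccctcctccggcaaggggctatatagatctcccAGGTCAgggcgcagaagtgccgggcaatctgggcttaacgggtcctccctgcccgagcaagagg
Cox8b (chr7:140900397-140900696, - strand): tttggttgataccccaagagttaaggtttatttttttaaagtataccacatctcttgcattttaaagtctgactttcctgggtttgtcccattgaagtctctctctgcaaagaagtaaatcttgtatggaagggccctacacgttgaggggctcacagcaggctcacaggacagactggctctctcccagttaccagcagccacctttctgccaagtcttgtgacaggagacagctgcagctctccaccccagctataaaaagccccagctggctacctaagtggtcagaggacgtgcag
Prdm16 (chr4:154636824-154637123, - strand): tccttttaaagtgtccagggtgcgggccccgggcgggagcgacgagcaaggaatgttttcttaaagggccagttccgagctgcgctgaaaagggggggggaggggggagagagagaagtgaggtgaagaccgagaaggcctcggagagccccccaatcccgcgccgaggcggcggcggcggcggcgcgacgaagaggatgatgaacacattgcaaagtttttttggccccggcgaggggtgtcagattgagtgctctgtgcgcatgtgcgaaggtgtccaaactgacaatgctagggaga
The Ucp1 window held 1 AGGTCA, starting 14 bases before the gene start, and 1 TGACG, starting 147 bases before it. The Cox8b and Prdm16 windows held neither, nor did that of Cox7a1. The Ppargc1a window held 1 TGACG, read on the opposite strand, 49 bases before the gene start. Of 32851 promoters of this length, 16.3% held AGGTCA and 20.8% held TGACG. The full element TGACGTCA, present in 1.79% of promoters, was found in Dio2, a target of cAMP in brown fat, where the window reads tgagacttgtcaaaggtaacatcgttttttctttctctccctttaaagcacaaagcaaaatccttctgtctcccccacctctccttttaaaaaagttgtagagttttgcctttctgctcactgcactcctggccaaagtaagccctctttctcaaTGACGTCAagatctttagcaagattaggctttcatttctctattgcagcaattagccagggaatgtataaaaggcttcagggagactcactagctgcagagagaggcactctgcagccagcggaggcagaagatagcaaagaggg (chr12:90738989-90739288, - strand). It starts 95 bases before the gene start and contains both TGACG matches of that window. TTCNNNGAA, the palindromic STAT element, was in none of the 6 windows and in 8.3% of all promoters. A match is a description of the letters, not a bound site.

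The arrays fell into 2 sets by the number of intact alleles, single-Stat5a and single-Stat5b in one and Stat5a-/- and Stat5ab+/null in the other. Each genotype lies in 1 set only, so allele number and array set cannot be told apart, and genotypes were compared in pairs within a set. The difference between these 2 comparisons was also tested and draws on both sets. In the fit the spread of a probe set was shared by all 12 arrays. The median SD between mice over all probe sets was 0.32 in the 1-allele arrays and 0.17 in the 2-allele arrays. Intervals of each pair therefore carry the spread of both sets. Between the sets 48.8% of all probe sets did not overlap. The excess of 3' over 5' signal for actin can reflect how intact the labelled RNA was, among other causes. It lay at 0.13 to 0.27 log2 units in the 2-allele arrays and at 2.16 to 3.78 in the 1-allele arrays. The cause of this gap was not tested. The brighter Stat5a probe set averaged 12.21 ± 0.34 in single-Stat5a against 10.98 ± 0.11 in single-Stat5b (SD, n = 3). It averaged 10.30 ± 0.18 in Stat5a-/- against 9.91 ± 0.15 in Stat5ab+/null. All 4 probe sets of Stat5a and Stat5b ran against the allele numbers in this pair, the other of Stat5a at 8.94 against 8.37 and those of Stat5b at 9.59 against 9.90 and 8.27 against 8.52. The position of these probes relative to the mutations was not analysed here, so both groups are taken as labelled, and every direction between them rests on those labels. The precision is limited by 3 arrays per genotype.

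Levels below are log2 signals of a probe set, so that 1 unit is a 2-fold change, and they are compared within a probe set only. Ucp1, the uncoupling protein itself, stood at 6.43, 8.06 and 9.44 in the arrays labelled Stat5a-/- 1 to 3, and at 6.94, 6.90 and 11.16 in Stat5ab+/null 1 to 3. In the 1-allele set, Ucp1 read 11.69, 6.72 and 7.09 for the single-Stat5a mice and 9.35, 8.45 and 6.57 for the single-Stat5b mice. Every genotype held at least 1 mouse between 6.43 and 6.94 and at least 1 at 9.35 or above, and the genotypes overlapped almost entirely. The mice of a genotype differed by up to 31.3-fold in single-Stat5a, 19.2-fold in Stat5ab+/null, 8.05-fold in the arrays labelled Stat5a-/- and 6.87-fold in single-Stat5b. The means were 8.50 ± 2.77 in single-Stat5a, 8.34 ± 2.45 in Stat5ab+/null, 8.12 ± 1.42 in single-Stat5b and 7.97 ± 1.51 in the arrays labelled Stat5a-/- (SD, n = 3), and no neighbours in this order differed beyond their spread. Between single-Stat5b and single-Stat5a the difference was -0.38 (95% interval -3.41 to 2.66, limma adjusted p = 0.951), and between the arrays labelled Stat5a-/- and Stat5ab+/null it was -0.37 (-3.40 to 2.67, adjusted p = 1.00). With so wide an interval a difference of several-fold in either direction was not detectable. Without single-Stat5a 1 the first difference was 1.22, and without Stat5ab+/null 3 the second was 1.05, both with the opposite sign.

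**Figure D1:**
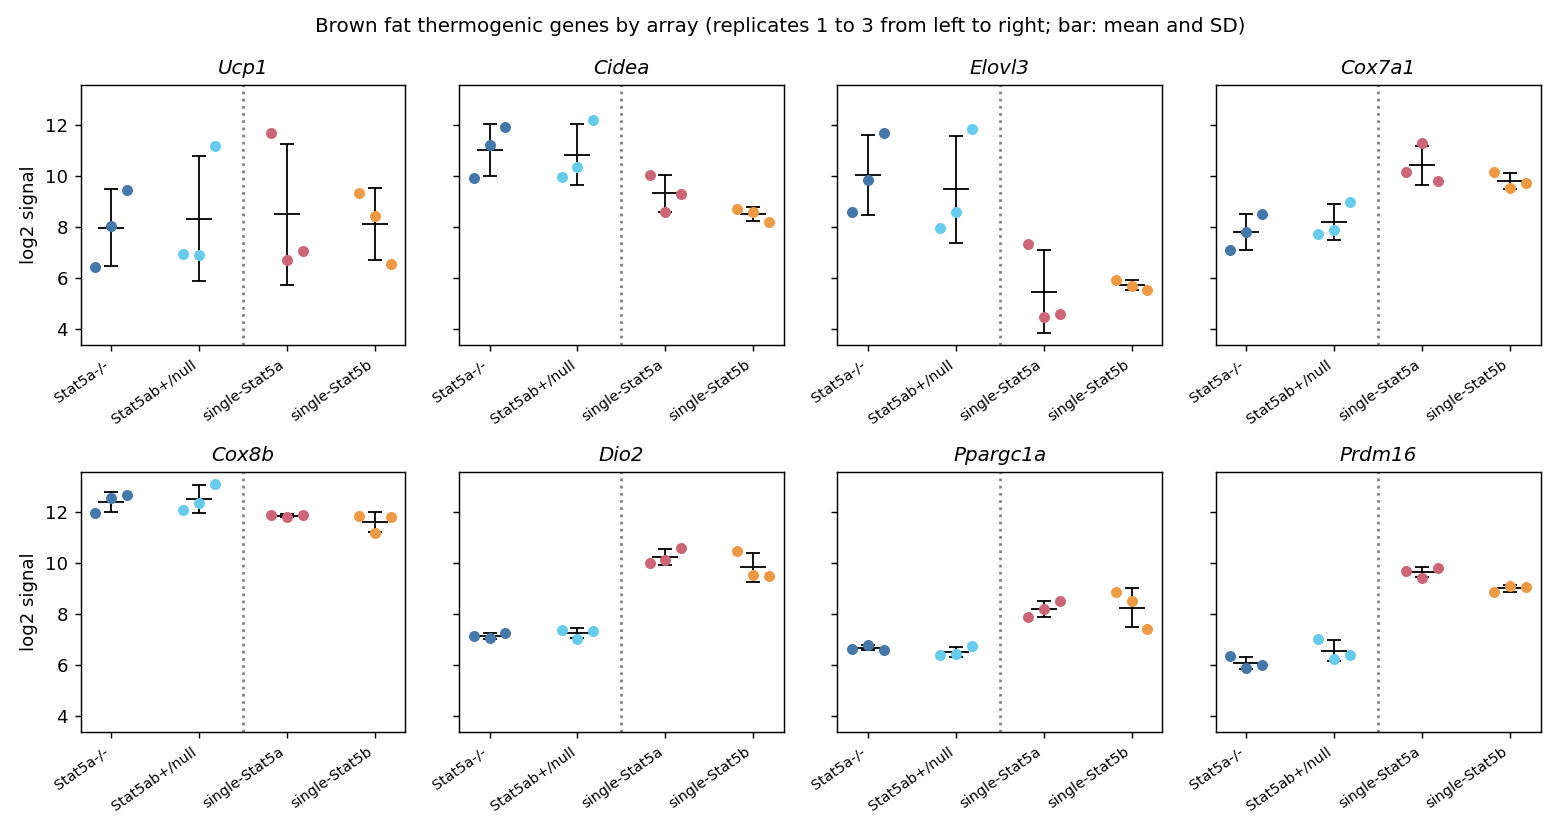
Log2 signal (y axis, shared) of each gene's probe set with the highest mean, for 3 arrays of each genotype (x axis; points are arrays, replicates 1 to 3 from left to right, bars are mean and SD, and the dotted line parts the 2 array sets). Ucp1 ranges from 6.43 to 11.69 with all genotypes overlapping, while Dio2, Ppargc1a and Prdm16 lie higher in all 1-allele arrays than in any 2-allele array.

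Elovl3, which elongates very long fatty acids and is induced with Ucp1 by cold, varied widely between mice in 3 of the 4 genotypes. In the 2-allele set it stood at 8.59, 9.83 and 11.69 in the arrays labelled Stat5a-/- 1 to 3 and at 7.97, 8.60 and 11.85 in Stat5ab+/null 1 to 3. In the 1-allele set the single-Stat5a mice read 7.34, 4.47 and 4.61 and the single-Stat5b mice 5.93, 5.70 and 5.55. All but the first lay under the level of log2 6.04 below which 30% of probe sets lie. The single-Stat5b mice spanned 1.31-fold, against 6.87-fold for Ucp1. The highest mouse of each genotype was the same as for Ucp1: single-Stat5b 1, single-Stat5a 1, Stat5ab+/null 3 and Stat5a-/- 3. Its difference was 0.25 (95% interval -1.96 to 2.46, adjusted p = 0.957) between single-Stat5b and single-Stat5a and 0.56 (-1.65 to 2.77, adjusted p = 1.00) between the arrays labelled Stat5a-/- and Stat5ab+/null, and neither passed. Without single-Stat5a 1 the former was 1.18, without Stat5ab+/null 3 the latter was 1.75, and without Stat5a-/- 3 the latter was -0.26.

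Cidea, the droplet protein, stood at 9.93, 11.22 and 11.90 in the arrays labelled Stat5a-/- 1 to 3 and at 9.96, 10.35 and 12.19 in Stat5ab+/null 1 to 3. The single-Stat5a mice read 10.06, 8.60 and 9.30 and the single-Stat5b mice 8.71, 8.60 and 8.20. The single-Stat5b mice were close together and at the low end of single-Stat5a, with a difference of -0.82 (95% interval -2.08 to 0.45, adjusted p = 0.654) that did not pass and groups that overlapped. Cox8b, an oxidase subunit isoform, had the highest signal of the 8 genes' probe sets and varied less. It stood at 11.95, 12.52 and 12.66 in the arrays labelled Stat5a-/-, 12.06, 12.34 and 13.10 in Stat5ab+/null, 11.87, 11.78 and 11.87 in single-Stat5a and 11.82, 11.16 and 11.81 in single-Stat5b. Groups within a set overlapped, and Cox8b differed by -0.24 (95% interval -0.85 to 0.36) and -0.12 (-0.73 to 0.48) in the single-allele and 2-allele comparisons. Cidea differed by 0.19 (-1.08 to 1.45) in the latter.

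In 3 of the 4 genotypes the mouse with the highest Ucp1 was also highest for most of the 7 other genes. Stat5a-/- 3 and Stat5ab+/null 3 each held the highest signal of their genotype for 5 of the 7, single-Stat5a 1 for 3 and single-Stat5b 1 for 6. Each gene was counted by its probe set with the highest mean. The share of all probe sets highest in each of these arrays is not given here, so these counts do not set the members apart. The actin 3' excess was also the highest of the genotype in single-Stat5b 1 (3.78 against 2.41 and 2.16) and Stat5ab+/null 3 (0.27 against 0.19 and 0.20). It was level with the next array in Stat5a-/- 3 and in the middle in single-Stat5a 1, and its part in the pattern was not tested. Cidea, Cox8b and Elovl3 were highest in the same 4 mice as Ucp1, a pattern found in 1.15% of all probe sets, though several leads were small. Cox8b led the next mouse by 0.0004 in single-Stat5a and 0.016 in single-Stat5b, and Cidea and Elovl3 led by 0.11 and 0.23 in single-Stat5b. Deviations from the genotype mean correlated with those of Ucp1 across the 12 arrays at a Pearson r of 0.930 for Elovl3, 0.892 for Cidea, 0.559 for Cox8b and 0.401 for Cox7a1. For the remaining 12 probe sets, those of Ppargc1a, Dio2 and Prdm16, the values that could be set beside it (9 with a mean at or above the 30th percentile) ran from -0.236 to 0.452. Without the 2 arrays that deviate most for Ucp1 (Stat5ab+/null 3 and single-Stat5a 1), r was 0.849 for Elovl3 and 0.846 for Cidea. It was then 0.437 for Cox8b and 0.440 for Cox7a1, no higher than 0.549 and 0.476 for 2 Ppargc1a probe sets or 0.484 for 1 of Prdm16, so Cox8b and Cox7a1 did not stand apart from these. These correlations describe 12 arrays of one series, and no p is attached to them.

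**Figure D2:**
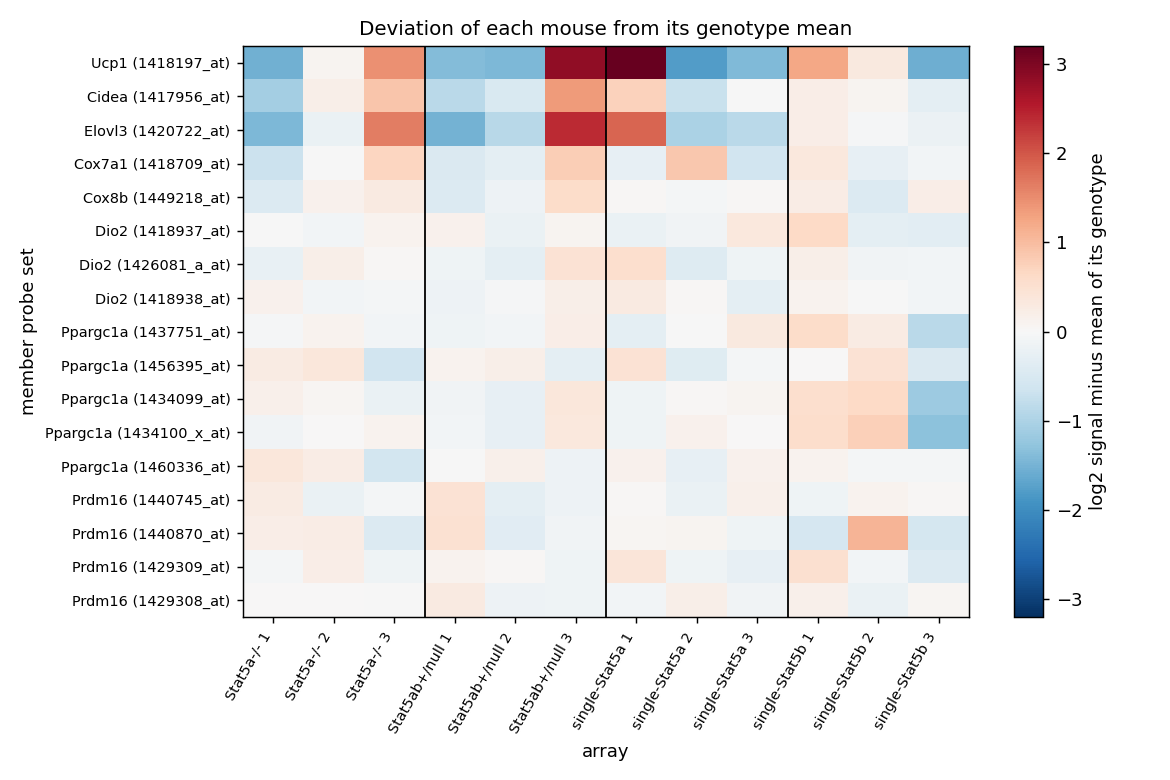
Deviation of each array (x axis) from the mean of its genotype, in log2 units (colour scale), for the 17 probe sets (y axis); black lines part the genotypes. Ucp1, Cidea and Elovl3 are positive together in Stat5a-/- 3, Stat5ab+/null 3 and single-Stat5a 1, while among the 12 probe sets of Ppargc1a, Dio2 and Prdm16 1 of Dio2 is positive in all 3, by 0.043 to 0.55. In single-Stat5b 1, Ucp1, Cidea and Elovl3 are positive too, by 0.21 to 1.23. There every probe set of Ppargc1a (0.0079 to 0.59) and of Dio2 (0.10 to 0.64) is also positive, and those of Prdm16 lie on both sides of 0.

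Of 26186 other probe sets with a named gene and a mean at or above the 30th percentile, the 5 most like Ucp1 in these deviations were Neto2 (r 0.951), Prim2 (0.933), Elovl3 (0.930), Lmtk3 (0.920) and Chn1 (0.919), with Cidea ranked 11. For Cox7a1 they were Oxld1 (0.968), Sp7 (0.948), Orm2 (0.934), 1600014C23Rik (0.931) and Mtfp1 (0.928), each over 12 arrays.

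Genes of fatty acid oxidation, the pathway that feeds the chain Ucp1 uncouples, were compared with the same 4 mice. Of the 19 measured, 12 were highest in the mouse with the highest Ucp1 in at least 3 of the 4 genotypes (63.2%, against 11.4% of all probe sets), and none in all 4. Of the 4 with the highest signal, this held for Etfb, a subunit of the electron transfer flavoprotein, for Hadhb, of the trifunctional enzyme, and for Acadl, a long-chain acyl-CoA dehydrogenase, and not for Etfa. Some leads were small. In Stat5a-/- 3 Acadm stood at 13.0541 against 13.0496 in Stat5a-/- 1, and Etfb at 13.2573 against 13.2451 in Stat5a-/- 2. The mean of the list was 11.7 in Stat5ab+/null 3 against 11.2 and 11.0 in Stat5ab+/null 1 and 2, and 11.5 in Stat5a-/- 3 against 11.2 in each of the other two. It was 11.3 in single-Stat5a 1 against 11.1 in each of the other two, but 11.1 in single-Stat5b 1 against 10.9 and 11.2, where the highest mean was in the mouse with the lowest Ucp1. Of 26 brown and beige regulators 4 did so, namely Ppara, Cebpb, Irf4 and Plac8, and of 16 common respiratory chain genes 4 did, namely Cox4i1, Cox5a, Cox7c and Sdha, all named after their values were seen. Of 13 white adipocyte genes 0 did, of 14 skeletal muscle genes 0, of 12 luminal genes 0 and of 9 B cell genes 2, Pax5 and Cr2. Of 10 skin and sebaceous gland genes 1 did, Mc5r, a sebaceous gland receptor that was highest in the mouse with the highest Ucp1 in all 4 genotypes, at a low signal of 4.83 to 6.48 in those mice. Pax5, Cr2 and Mc5r were likewise named after their values were seen. Taken by array, 12 of the 16 respiratory chain genes were highest in Stat5a-/- 3 and 14 in Stat5ab+/null 3. In single-Stat5a 1 and single-Stat5b 1, 4 were in each. For fatty acid oxidation the counts in these arrays, in the same order, were 14, 18, 12 and 4 of 19.

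White adipocyte markers gave no single direction in those mice. In Stat5ab+/null 3, 8 of the 13 were the highest of their genotype, against 2 in Stat5a-/- 3, 1 in single-Stat5a 1 and 3 in single-Stat5b 1. The mean of the list was 12.6 in Stat5a-/- 3 against 13.2 in each of the other two, and 12.9 in Stat5ab+/null 3 against 13.2 and 13.0. Lep and Nnat, singled out after their values were seen, were low in both arrays, with Nnat at 7.80 and 8.73 against 11.36 to 12.78 in the other 4 arrays of the set. Without these 2 genes the mean was 13.36 in Stat5a-/- 3 against 13.42 and 13.49, and 13.51 in Stat5ab+/null 3 against 13.43 and 13.24. Skeletal muscle markers were at 6.20 in Stat5ab+/null 3, the lowest of the 12 arrays, where Ucp1 stood at 11.16. In single-Stat5a 2 they were at 12.9, the highest of the 12, and Ucp1 at 6.72, the lowest of its genotype. In Stat5a-/- 3, however, muscle (9.21 against 6.25 and 6.21) and B cell markers (10.96 against 6.74 and 6.78) were above those of the other two mice, as Ucp1 was, and their part in that array was not tested. In bulk tissue, more cells of a type and more RNA per cell cannot be told apart.

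Cox7a1, the oxidase subunit shared with heart and muscle, stood at 7.11, 7.80 and 8.50 in the arrays labelled Stat5a-/- 1 to 3 and at 7.73, 7.88 and 8.99 in Stat5ab+/null 1 to 3. The single-Stat5a mice read 10.15, 11.29 and 9.81 and the single-Stat5b mice 10.16, 9.55 and 9.73. Its highest mouse was that of Ucp1 in 3 genotypes, but in single-Stat5a it was mouse 2, where Ucp1 was lowest and the muscle list highest. Cox6a2, another muscle and heart isoform of the oxidase singled out after its values were seen, stood at 12.2 in that array and at 8.84 and 8.36 in single-Stat5a 1 and 3. The differences of Cox7a1 were -0.60 (95% interval -1.56 to 0.35, adjusted p = 0.663) between single-Stat5b and single-Stat5a, -0.17 without single-Stat5a 2, and -0.39 (-1.35 to 0.56, adjusted p = 1.00) between the arrays labelled Stat5a-/- and Stat5ab+/null, 0.001 without Stat5ab+/null 3. The widely expressed counterpart isoforms, singled out after their values were seen, varied less between mice of the 2-allele set. Within a genotype Cox7a2 spanned 13.9 to 14.1 in the arrays labelled Stat5a-/- and Stat5ab+/null alike, and Cox8a spanned 14.2 to 14.3 and 14.2 to 14.5, near the top of the scale (15.2). In the 1-allele set Cox8a varied more than Cox8b, with an SD of 0.54 against 0.38 in single-Stat5b and 0.15 against 0.05 in single-Stat5a.

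Dio2, the deiodinase that makes active thyroid hormone inside brown adipocytes, was read by 3 probe sets. The one with the highest signal stood at 7.12, 7.05 and 7.25 in the arrays labelled Stat5a-/- and at 7.37, 7.01 and 7.34 in Stat5ab+/null. For it the single-Stat5a mice read 10.01, 10.11 and 10.56 and the single-Stat5b mice 10.46, 9.50 and 9.49, and the groups of each set overlapped. The other two had means under the 30th percentile and stood between 4.59 and 6.43 in the 12 arrays. Within a set, the mice of a genotype lay closer together than for Ucp1, and the first probe set differed by -0.41 (95% interval -0.95 to 0.14, adjusted p = 0.581) between single-Stat5b and single-Stat5a and by -0.10 (-0.65 to 0.45) between the others. The other two probe sets differed by 0.31 and 0.22 in the single-allele comparison, the opposite sign, and the mean over the 3 by 0.042, none of which passed.

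Ppargc1a, the coactivator that drives mitochondrial genes, had 5 probe sets. The one with the highest mean stood at 6.63, 6.79 and 6.60 in the arrays labelled Stat5a-/- and at 6.38, 6.43 and 6.74 in Stat5ab+/null. For it the single-Stat5a mice read 7.88, 8.18 and 8.52 and the single-Stat5b mice 8.84, 8.50 and 7.39, and the groups within each set overlapped. It differed by 0.052 (95% interval -0.61 to 0.71, adjusted p = 0.971) and 0.16 (-0.51 to 0.82) in the single-allele and 2-allele comparisons. The other 4 differed by -0.31 to 0.16 and by -0.32 to 0.095, and none passed. In 2 of these 4, single-Stat5b 3 was low, at 6.84 and 6.35 against 8.22 to 8.63 in single-Stat5b 1 and 2.

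Across the array sets 11 of the 17 probe sets did not overlap, 8 higher and 3 lower in the 1-allele arrays, where 24.1% and 24.7% of all probe sets did so. Dio2 (highest-signal probe set) averaged 10.02 against 7.19, Cox7a1 10.11 against 8.00, and Prdm16 (highest-signal probe set) 9.31 against 6.32. Elovl3 averaged 5.60 against 9.76 and Cox8b 11.72 against 12.44, while Cidea overlapped at 8.91 against 10.92. Probe sets of a gene disagreed: that of Dio2 with the lowest signal was lower in the 1-allele arrays (5.02 against 6.20), and 1 of 5 for Ppargc1a and 2 of 4 for Prdm16 overlapped. Ucp1 averaged 8.31 and 8.15. These differences move with the actin 3' minus 5' signal given above, and allele number and array set cannot be told apart.

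Prdm16, the regulator that commits precursors to brown fat, was the only member with a probe set that passed between genotypes, a dim 1 of its 4. Its 4 probe sets are named by their identifiers. In 1429308_at the single-Stat5a mice read 6.13, 6.41 and 6.10 and the single-Stat5b mice 4.70, 4.33 and 4.61. All single-Stat5b arrays lay below all single-Stat5a arrays, and the difference was -1.67 log2 units (SE 0.17, limma adjusted p = 9.86e-05), or 3.18-fold lower. This probe set is dim, with a mean of 5.68 at percentile 24.3 of all probe sets, and background was not measured. In the better measured 1440745_at, single-Stat5a stood at 9.68, 9.42 and 9.79 and single-Stat5b at 8.86, 9.10 and 9.03, again without overlap. Its difference of -0.64 (SE 0.21) did not pass over all probe sets (adjusted p = 0.190). In 1440870_at, single-Stat5a stood at 9.35, 9.39 and 9.16 and single-Stat5b at 7.38, 9.02 and 7.36, without overlap, with a difference of -1.38 (SE 0.39, adjusted p = 0.0993) that was -1.93 (adjusted p = 0.00162) without single-Stat5b 2. The 4th, 1429309_at, overlapped, with a difference of -0.26 (SE 0.24, adjusted p = 0.745).

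Averaged over its 4 probe sets, Prdm16 fell by 0.99 (SE 0.17, limma adjusted p = 0.00784 over genes) in single-Stat5b. The average includes 1429308_at, which passed alone, so it is not separate evidence. Between the arrays labelled Stat5a-/- and Stat5ab+/null the 4 probe sets differed by -0.48 to -0.26. Of these, 1429308_at did not overlap (5.79, 5.78 and 5.75 against 6.46, 6.01 and 6.03), and none passed. For 1429308_at the single-allele difference was itself more negative than the 2-allele one, by 1.28 (SE 0.24, adjusted p = 0.0250), a call lost without any one of 7 arrays (adjusted p 0.0521 to 0.0889). These 7 were the arrays labelled Stat5a-/- 1, 2 and 3, Stat5ab+/null 2 and 3, and the first and second of single-Stat5a. For 1440870_at the difference of the 2 comparisons was -1.11 (adjusted p = 0.699), and -1.66 (adjusted p = 0.0437) without single-Stat5b 2. The difference of the 2 comparisons spans both array sets, so allele number and array set cannot be told apart in it. With 1 probe set per gene, that of the highest signal, or with dim probe sets left out, no Prdm16 probe set passed. Muscle markers were also lower in single-Stat5b (8.81 ± 1.40 against 10.78 ± 1.86, SD, n = 3). With the muscle mean as a covariate, 1429308_at passed in the single-allele comparison (limma adjusted p = 0.000912). With that covariate its difference of the 2 comparisons did not pass. The part of muscle in the Prdm16 signal was not tested.

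**Figure D3:**
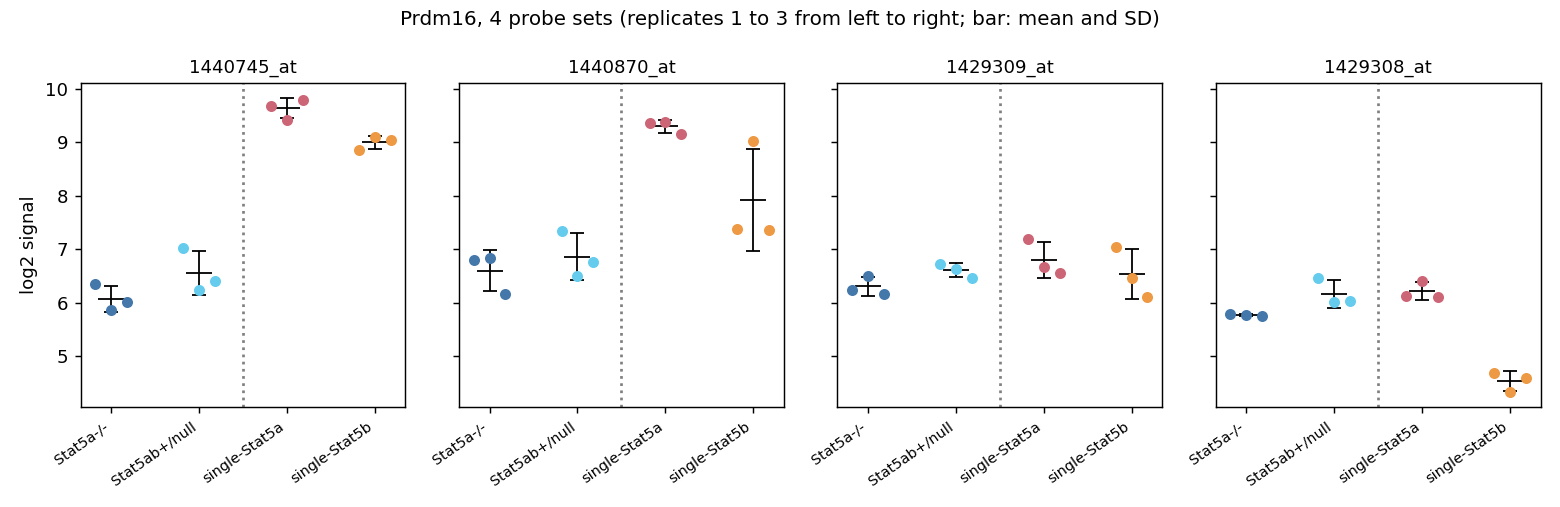
Log2 signal (y axis, shared) of the 4 Prdm16 probe sets (panels) in 3 arrays of each genotype (x axis; points are arrays, bars are mean and SD, and the dotted line parts the array sets). In 3 of 4 panels every single-Stat5b point lies below every single-Stat5a point, and single-Stat5b 2 at 9.02 lies nearest to single-Stat5a in 1440870_at.

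Counted over all members, 1 of 17 probe sets passed between single-Stat5b and single-Stat5a, that of Prdm16 and lower in single-Stat5b, where 2.70% of all 45037 passed, 1.06% higher and 1.65% lower. Groups did not overlap for 3 of 17, all Prdm16, against 11.9% of all probe sets. The median difference was -0.27 over the 17, with 12 below 0, and 0.024 over all probe sets. Between the arrays labelled Stat5a-/- and Stat5ab+/null, limma passed 0 of 17, where 0.00666% of all passed (0.00444% higher and 0.00222% lower), and 2 had an unadjusted p under 0.05. Groups did not overlap for 1 of 17, against 17.0% of all. The median difference was -0.12, against -0.035 over all probe sets. For the difference of the 2 comparisons 1 of 17 passed, below 0, against 0.950% of all (0.351% above 0 and 0.600% below).

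**Figure D4:**
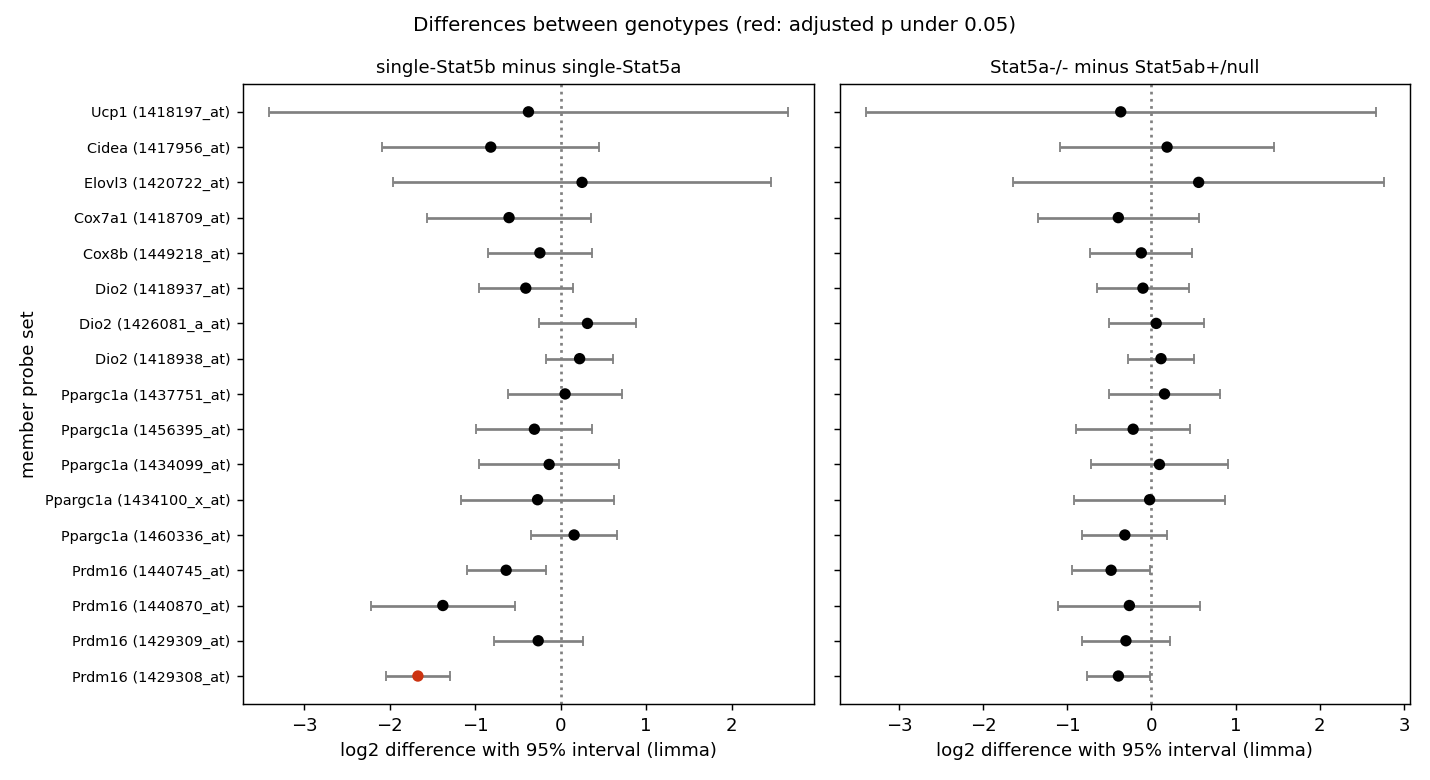
Log2 difference (x axis) with its 95% interval from limma for the 17 probe sets (y axis), single-Stat5b minus single-Stat5a on the left and Stat5a-/- minus Stat5ab+/null on the right, with the 1 passing probe set in red. The intervals of Ucp1, from -3.41 to 2.66 on the left, are the widest, and Prdm16 points lie left of 0 in both panels.

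Variation between mice and between genotypes was separated within each set, as the share of the sum of squares that lies between the genotypes and the SD between mice of a genotype. For Ucp1 the share was 1.09% in the 1-allele set and 1.20% in the 2-allele set, with an SD between mice of 2.20 and 2.03, at percentiles 99.98 and 99.88 of all probe sets. Elovl3 had a share of 1.73% and 3.37% at an SD of 1.15 and 1.84, and Cidea 45.5% and 1.06% at 0.55 and 1.10. At the other end 1429308_at of Prdm16 had 97.0% of its variance between genotypes in the 1-allele set at an SD of 0.18, and 1440745_at 85.5% at 0.16. The other Prdm16 probe sets differed from these, with 60.6% at 0.68 for 1440870_at and 13.2% at 0.41 for 1429309_at. Over the 17 probe sets the median share was 22.4% in the 1-allele set and 10.9% in the 2-allele set, against 12.5% and 16.9% over all probe sets. The 2-allele value rests on 1 array, being 42.0% without Stat5ab+/null 3. The median SD between mice was 0.45 and 0.34, against 0.32 and 0.17 over all probe sets. The difference between genotypes was smaller than that SD for 12 of 17 probe sets in the 1-allele set and 14 of 17 in the 2-allele set. The share over all probe sets was not computed, so these counts do not set the members apart.

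**Figure D5:**
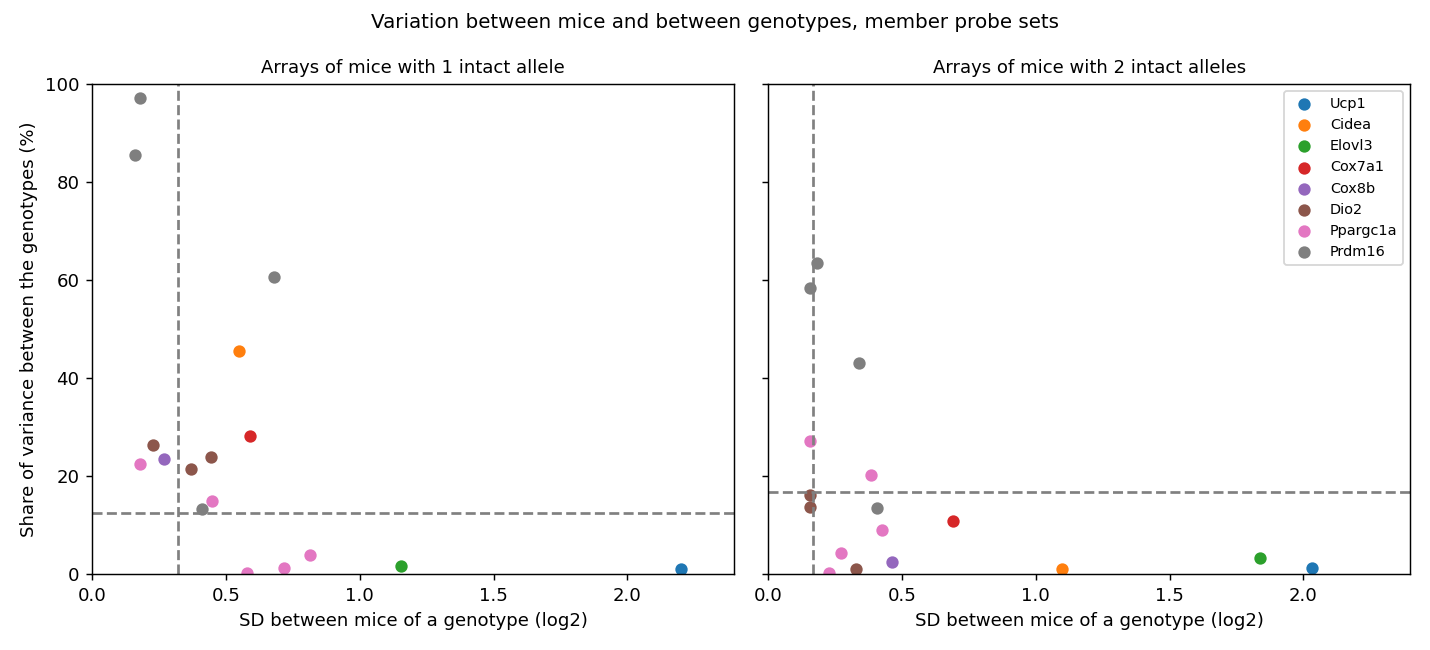
Share of variance between the genotypes (y axis, percent) against the SD between mice of a genotype (x axis, log2 units) for the 17 probe sets, coloured by gene, in the 1-allele (left) and 2-allele arrays (right); dashed lines are the medians of all probe sets. Ucp1 and Elovl3 lie at the lower right, with shares under 4%, and Prdm16 holds the highest shares, up to 97.0% on the left.

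Of 152 further genes on lists of related pathways and other cell types, 140 were measured, and 3 (2.14%) passed between single-Stat5b and single-Stat5a, all lower in single-Stat5b, a share no higher than the 2.70% of all probe sets. Gatm, which makes the creatine precursor used in creatine cycling, averaged 6.33 ± 0.40 for single-Stat5b and 7.48 ± 0.26 for single-Stat5a (SD, n = 3; adjusted p = 0.0167, limma). It was the 1 of 11 genes of the futile cycles list to pass. The other two are genes of cornified skin, from a list of 10 with 5 above 0, 5 below and a median of 0.028: Krtdap at 6.98 ± 0.84 for single-Stat5b against 8.73 ± 0.48 and Cdsn at 5.30 ± 0.71 against 11.48 ± 0.56. Of 26 brown and beige regulators 0 passed, with 18 below 0 and a median of -0.21. Among those with the highest signal, Pparg, the master regulator of adipocytes, stood at 11.15 ± 0.47 for single-Stat5b against 11.54 ± 0.31, and Cebpa, its partner, at 13.48 ± 0.05 against 13.44 ± 0.13. For fatty acid oxidation 0 of 19 passed (median -0.12), for the common respiratory chain 0 of 16 (-0.21), for adrenergic input 0 of 7 (-0.15), for white adipocytes 0 of 13 (-0.43, 12 below 0) and for skeletal muscle 0 of 14 (-2.23, all below 0). Between the arrays labelled Stat5a-/- and Stat5ab+/null 0 of the 140 passed, with medians of -0.14 for the regulators, 0.005 for fatty acid oxidation, -0.006 for the respiratory chain, 0.071 for adrenergic input, -0.002 for white adipocytes and 0.28 for muscle.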

How the data were processed

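Affymetrix arrays were hybridized with biotin-labelled cRNA made from total RNA. The deposited values are on a log2 scale, 1 signal per probe set and array. RMA and Partek are named per the submitters' processing notes, with no version, setting or genome build given in the sources used here. Genotypes came from the labels, and replicates were numbered in record order. Probe sets were named by the platform annotation; 932 with several genes and 9160 with none kept no name, and 64 controls were left out. All 45037 others were fitted, unfiltered, in R 4.3.3 by limma 3.58.1, with a mean for each genotype, a spread shared by the 12 arrays, 2-sided moderated tests, Benjamini-Hochberg adjustment over all of them, and 0.05 as the limit on the adjusted p. The smallest p of an exact permutation test at this size is 0.1, so none was run. The fit was tested on simulated data. The members, the lists and the tests were chosen with earlier results of these data known. Every member and probe set is named; of each list, genes that passed and up to 4 with the highest signal, and the genes most like Ucp1 and Cox7a1. For lists, a gene's probe set with the highest mean was used, and 12 genes without one were not analysed here. Alternatives were filters, scaling, probe set choice, variance models, covariates and leaving out arrays.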

Additional observations from a re-analysis of the deposited data

Results flagged for a closer look

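For 1 Prdm16 probe set, 1429308_at, the 2 comparisons differed in the fit as reported, though not in all alternatives. The difference single-Stat5b minus single-Stat5a was more negative than that of Stat5a-/- minus Stat5ab+/null (interaction -1.28 log2 units, limma adjusted p = 0.0250). It passed in 11 of 22 alternatives and failed in 7 of the 12 fits without 1 array, with adjusted p from 0.0194 to 0.254 over the alternatives. All 3 single-Stat5b arrays lay below all 3 single-Stat5a arrays for it. The interaction spans both array sets, so allele number and array set cannot be told apart in it.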

How the results depend on the processing

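No paired analysis was possible because the labels give no shared replicate numbers. The count of member probe sets passing between single-Stat5b and single-Stat5a, 1 as reported, was 0 with probe sets under the 30th or the 50th percentile left out and with 1 probe set per gene, since these remove 1429308_at of Prdm16. It was 2 with array weights and 2 with the 4 arrays of high B cell or muscle signal left out (chosen after seeing the data), and 1 to 2 with any 1 array left out, 2 without single-Stat5b 2. Between the arrays labelled Stat5a-/- and Stat5ab+/null it was 0 in all 27 alternatives. For the difference of the 2 comparisons it was 0 with both filters, 1 probe set per gene, probe sets averaged by gene, the muscle or the white adipocyte list as covariate, an adjusted p under 0.01 and the 4 arrays left out, and 0 to 2 with 1 array left out. The fall of 1429308_at in single-Stat5b passed in all 23 alternatives that keep it (limma adjusted p 6.02e-05 to 0.00730).

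Differences that did not pass changed sign, and the cause was not tested. For single-Stat5b minus single-Stat5a, Elovl3 was -0.257 with array weights, -1.314 with the white adipocyte covariate and -0.239 without the 4 arrays. Ppargc1a was -0.237 with the muscle, -0.246 with the white adipocyte and -0.100 with the actin covariate, and -0.084 without the 4 arrays. Without the 4 arrays, Cidea was -0.497 and Elovl3 -0.702 for Stat5a-/- minus Stat5ab+/null. With 1 array left out, the first comparison ranged from -1.265 to 1.218 for Ucp1, -0.245 to 0.477 for Ppargc1a and -0.253 to 1.184 for Elovl3. The second ranged from -1.097 to 1.049 for Ucp1, -0.258 to 0.862 for Cidea, -0.742 to 0.001 for Cox7a1, -0.342 to 0.179 for Cox8b and -0.264 to 1.749 for Elovl3. Scaling left the members highest in the same mouse as Ucp1 in all 4 genotypes at 2 with quantile normalization and 3 with centred arrays. Where 1 array was left out, the rest of its genotype stayed in a fit with a shared spread. Signal over background was not measured, which limits the dim probe sets.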
